A study of Mus musculus with 32 samples.

Results

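The clones described here are 100 of the 15247 cDNA clones of a mouse array whose starved minus basal difference was negative in both cell lines and in both polysome fractions. They were chosen by rule from the measured values. Among the 15169 clones with no missing value, 4115 (27.1%) had an average difference between starved and basal samples that was larger in size than both the heavy minus light and the 4E minus NIH 3T3 difference. These were ranked by the largest, that is the least negative, of their 4 single starved minus basal differences, and the 100 lowest were taken. Every starved minus basal value below therefore describes the choice and supports nothing by itself.

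The study hybridised RNA from polysome gradients of NIH 3T3 cells, a line of mouse fibroblasts, and of NIH 3T3/4E cells, the same fibroblasts made to overexpress the translation initiation factor eIF4E ectopically. The sources used here name neither the promoter that drives eIF4E nor whether NIH 3T3/4E is 1 clone. Each line was kept in complete medium (basal) or for 16 h without serum (serum stressed in the labels, starved here), and each lysate gave a light pool of gradient fractions 4 to 6 and a heavy pool of fractions 7 to 10. Every array carried the same second RNA, unfractionated poly(A) RNA from NIH 3T3 cells in full medium, and the values are log ratios between sample and that reference. The 8 groups of line, fraction and serum state hold 2 samples each, 16 in all, and a stratum is 1 line in 1 fraction, starved against basal. Whether a group's samples were separate cultures is not stated, and p-values measure only the spread between them, which may be technical. Heavy and light samples of a line and serum state may share a lysate. Which of them do is not stated, and the fit took all 16 samples as separate. Its p-values for serum, line and level may therefore count a lysate as 2 samples.

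In the cell, eIF4E binds the cap at the start of an mRNA and helps to recruit the ribosome to it. An mRNA that is translated often carries several ribosomes at once and sinks deep into a sucrose gradient, whereas an mRNA with few or none stays near the top. Serum supplies growth factors that keep fibroblasts dividing and keep eIF4E free of its binding proteins. Its withdrawal lowers protein synthesis and, in cells without survival signals, can lead to apoptosis. A transcript that becomes rarer or more abundant as a whole moves the same way in light and heavy pools. One that shifts only between these pools, without a change in amount, moves in opposite ways. The pools cover only fractions 4 to 10, so the same direction in both does not by itself show a change in amount. In bulk samples, fewer cells that make an RNA and less RNA in each cell cannot be told apart.

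Some limits touch every value. The sources used here do not say which way the ratio was formed, so a negative difference is a lower deposited value in starved samples and may stand for less or for more RNA. The log base is not stated either, and values are taken as log2. The deposited table gives clone IDs without genes. A search of the RefSeq gene table for the 15247 IDs matched 0 of them, so no gene list, no fibroblast marker and not eIF4E itself could be looked up, and clones are named by ID only. Every column correlated above 0 with every other, the lowest r being 0.024, and the samples of a group correlated across clones at r of 0.53 to 0.68. Rows of buffer and Arabidopsis control spots are filled in the 8 basal NIH 3T3 and starved 4E samples and empty in the other 8. Each single stratum crosses that split, which cannot be told apart from its starved minus basal difference. The average over the 4 strata is balanced over it.

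In basal samples the members lay above the array median and in starved samples below it. Their median log2 ratio, with the median of all clones on an array at 0, lay between 0.088 (the first sample of 4E light basal) and 0.34 (the first sample of NIH 3T3 heavy basal) in the 8 basal samples. In the 8 starved samples it lay between -0.91 (the second sample of 4E heavy starved) and -0.45 (the second sample of NIH 3T3 heavy starved). From 75 to 89 of the 100 members were below the array median in each starved sample, against 29 to 39 in each basal sample. For 62 members the basal mean was above the array median and the starved mean below it, for 30 both were below, and for 8 both were above.

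**Figure D1:**
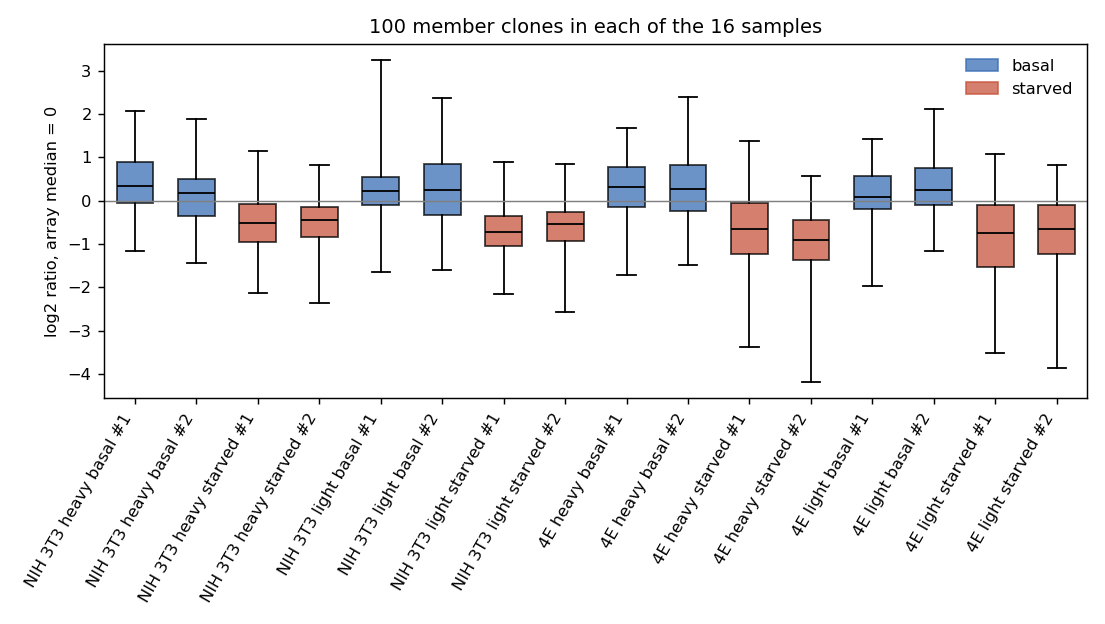
Log2 ratio of the 100 member clones in each of the 16 samples, with the array median at 0. Boxes span the middle 50% of the members, lines mark the median and whiskers reach the lowest and highest member; all 8 basal medians lie above 0 and all 8 starved medians below -0.4, and the ranges overlap.

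The average starved minus basal difference of the members ran from -1.92 to -0.46 log2 units with a median of -0.91, against a median of 0.017 over all clones. By limma 67 of the 100 passed an adjusted p of 0.05 as negative, where 1.23% of all clones did (2.94% in either direction), and the rule used this contrast. The count fell to 44 without the second sample of 4E light basal. Among all 15169 clones, 1268 (8.36%) were negative in all 4 strata, and 603 of those also met the rule on size.

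The members' median differences were -0.70 in NIH 3T3 heavy, -0.86 in NIH 3T3 light, -1.03 in 4E heavy and -0.92 in 4E light samples. NIH 3T3 heavy was the least negative of the 4 strata for 42 members and the most negative for 15. 4E heavy was the most negative for 41 and the least negative for 16. The NIH 3T3 heavy stratum thus most often set a clone's rank. Single strata rest on 2 samples against 2, and few members passed in them. In 4E heavy 18 members passed by limma as negative (0.686% of all clones did), in 4E light 2 (0.0725%), in NIH 3T3 heavy 1 (0.112%) and in NIH 3T3 light 1 (0.0396%). The count in 4E heavy fell to 2 without the first and to 0 without the second basal sample of that stratum, and to 0 without its second starved sample. In 4E light it was 4 without the first basal sample, 1 without the second and 5 without the second starved sample. The single call in NIH 3T3 heavy was lost without any 1 of the samples of that stratum, or without either sample of 4E light basal. The call in NIH 3T3 light was lost without either basal sample or the first starved sample of that stratum.

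At the level of single samples, 49 members had both starved samples below both basal samples in each of the 4 strata, a pattern found in 0.719% of all clones. In 35 members this held in 3 strata, in 13 in 2 and in 3 in 1. All 8 starved samples lay below all 8 basal samples for 10 members, against 0.0791% of all clones (12 clones). For the other 90 the starved and basal ranges overlapped once line and fraction were pooled.

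**Figure D2:**
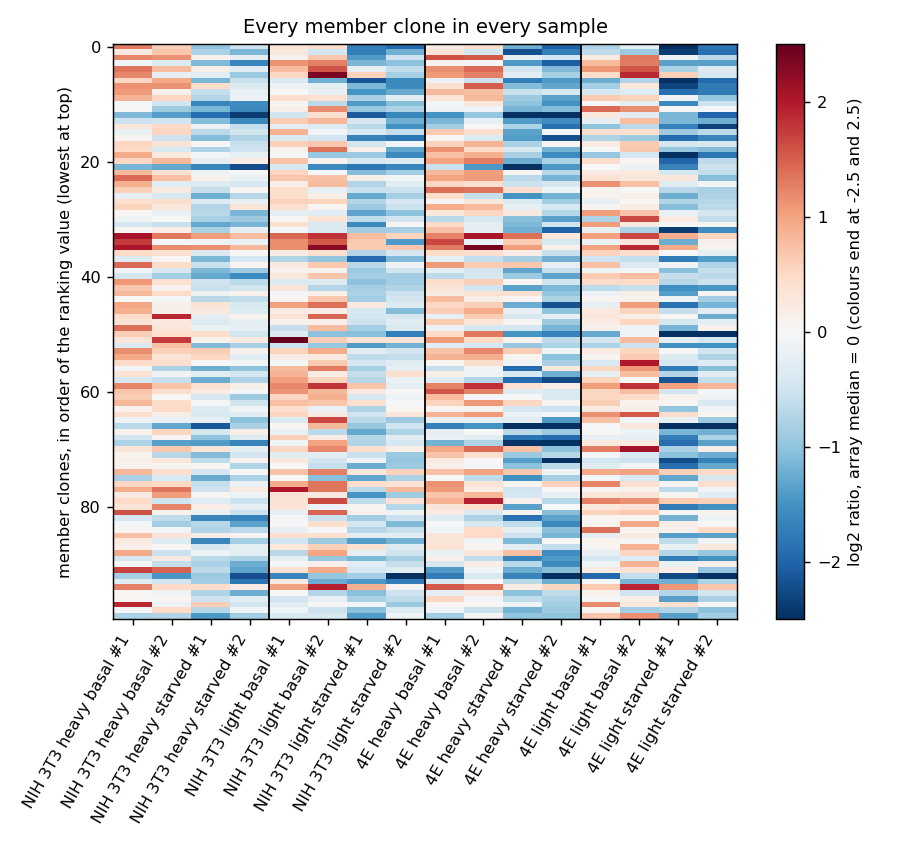
Log2 ratio, with the array median at 0, of each member clone (rows, ranked by the least negative of the 4 starved minus basal differences) in each of the 16 samples (columns); black lines separate the 4 strata, and colours end at -2.5 and 2.5. In each block the left pair of columns is basal and the right pair starved, and the mean of the right pair is the lower in every row, while rows differ in whether the whole row lies above or below 0.

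Clone H3019C03 ranked first. In heavy samples of NIH 3T3 it stood at 1.30 and 0.61 in basal and at -0.99 and -0.53 in starved cells. In light samples of NIH 3T3 it stood at 0.28 and 0.41 in basal and at -1.72 and -1.94 in starved cells. In heavy samples of 4E it stood at 0.21 and 0.42 in basal and at -1.22 and -2.02 in starved cells. Both starved values lay below both basal values in each of these strata. In light samples of 4E it stood at -0.77 and -0.23 in basal and at -2.93 and -1.80 in starved cells, again without overlap. Over all strata the 8 basal samples averaged 0.28 ± 0.60 (SD, n = 8) and the 8 starved samples -1.64 ± 0.73 (SD, n = 8). Pooled over strata the ranges overlapped, since the lowest basal sample, of 4E light, lay below the highest starved sample, of NIH 3T3 heavy. The difference was -1.92 (SE 0.21, limma adjusted p = 0.000692).

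Clone H3158E03 ranked second, with an average difference of -1.51 (SE 0.19, limma adjusted p = 0.00173). In NIH 3T3 it stood at 0.21 and 0.69 (heavy basal), -0.79 and -1.14 (heavy starved), 0.26 and -0.46 (light basal), and -1.74 and -1.20 (light starved). In 4E it stood at 0.33 and -0.45 (heavy basal), -2.20 and -1.71 (heavy starved), -0.63 and -0.90 (light basal), and -2.37 and -1.89 (light starved). Starved and basal samples did not overlap within any stratum. For both leading clones the 4E light starved samples held the lowest value and the NIH 3T3 heavy basal samples the highest.

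At the other end, the last clone inside the limit, H3108H10, had differences of -0.39 (NIH 3T3 heavy), -0.38 (NIH 3T3 light), -0.56 (4E heavy) and -2.02 (4E light), so its average of -0.83 came mostly from 1 stratum. Its difference in NIH 3T3 light was 0.27 without the first starved sample of that stratum. That average passed narrowly (SE 0.21, limma adjusted p = 0.0468), and the call was lost without any 1 of 14 of the 16 samples, the exceptions being the second of NIH 3T3 light starved and the first of 4E heavy basal. The first clone outside, H3035H07, had a least negative difference of -0.37 and an average of -0.53. There was no gap between them. Of all 15169 clones, 8 had a difference below -1 in every stratum, and all 8 were members.

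Heavy and light fractions were compared next. The rule limits the size of this difference but not its sign, so it is described and not used as support. The heavy minus light difference of the members ran from -1.13 to 1.31 log2 units with a median of 0.060, above 0 in 55 members and below 0 in 45. By limma 21 members passed, 10 as positive and 11 as negative, against 18.1% of all clones (9.28% positive, 8.83% negative). The share of members that passed after adjustment was thus near the background. At an unadjusted limma p under 0.05 there were 41 members, against 28.9% of all clones. The median size of the difference was 0.35 in the members and 0.25 in all clones. No member had heavy and light samples without overlap (2.89% of all clones). The rule fixed this, since the serum difference had to be negative and larger in size than the heavy minus light difference. In 30 members the difference was positive in all 4 states of line and serum (19.3% of all clones) and in 22 it was negative in all 4 (17.2% of all clones). On the side of the split with control values 51 members had a positive heavy minus light difference and on the other side 62, and 81 had the same sign on both sides, against 65.8% of all clones. The members thus held clones with higher deposited values in the heavy pool and clones with higher values in the light pool, and by the rule both kinds were negative with starvation in both pools.

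Clone H3024A11 had the largest positive heavy minus light difference of the members. Its 8 heavy samples ran from -1.69 to 1.31 with a median of 0.44, and its 8 light samples from -2.69 to -0.08 with a median of -1.15. The difference was 1.31 (SE 0.23, limma adjusted p = 0.00122), and the ranges of the pools overlapped. Clone H3003F02 was next, with 8 heavy samples from -1.30 to 1.51 (median 0.43), 8 light samples from -2.29 to 0.26 (median -0.99) and a difference of 1.20 (SE 0.22, limma adjusted p = 0.00172). For both clones the heavy mean lay above the light mean in each line and serum state.

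Clone H3013G10 had the most negative difference, -1.13 (SE 0.19, limma adjusted p = 0.00107), with 8 heavy samples from -2.47 to -0.76 (median -1.37) and 8 light samples from -1.90 to 1.00 (median -0.28). Clone H3027C01 differed by -1.04 (SE 0.19, limma adjusted p = 0.00157), with 8 heavy samples from -1.62 to -0.04 (median -0.99) and 8 light samples from -0.96 to 1.42 (median 0.09). In both the heavy mean was below the light mean in each line and serum state. From basal to starved, H3013G10 went from -1.07 to -1.53 in the heavy and from 0.44 to -0.60 in the light pool of NIH 3T3, and from -0.97 to -2.46 and from 0.25 to -1.62 in those of 4E.

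How far the serum difference itself depended on the pool is fixed in part by the rule, since all 4 strata had to be negative. The starved minus basal difference in heavy less that in light samples ran from -0.84 to 1.29 with a median of -0.024. No member and no other clone passed for it by limma (0% of all clones), and 4 members had an unadjusted p under 0.05, against 2.38% of all clones.

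The difference between the cell lines is bounded in size by the rule in the same way. The 4E minus NIH 3T3 difference of the members ran from -1.55 to 0.78 with a median of -0.065, below 0 in 60 members and above 0 in 40. By limma 5 passed, 4 as negative and 1 as positive, against 2.62% of all clones (1.36% negative, 1.25% positive). That count was 1, 2 or 3 when 1 of 12 of the 16 samples was left out, the exceptions being the second samples of NIH 3T3 light starved and of 4E light starved, the first of 4E heavy starved and the second of 4E light basal. At an unadjusted limma p under 0.05 there were 29 members, against 14.7% of all clones. The median size of the difference was 0.23 in the members and 0.19 in all clones. The difference was negative in all 4 states of fraction and serum for 20 members (8.68% of all clones) and positive in all 4 for 10 (9.48% of all clones). No member had the samples of the lines without overlap (0.382% of all clones). The rule fixed this too, since the serum difference had to be negative and larger in size than the line difference. The combination of a positive heavy minus light and a negative 4E minus NIH 3T3 difference held 37 members, against 26.3% of all clones. Both were positive in 18 members (24.4% of all clones) and both negative in 23 (22.3%). A negative heavy minus light and a positive 4E minus NIH 3T3 difference was found in 22 (26.9%). The rule bounds the size of both differences.

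**Figure D3:**
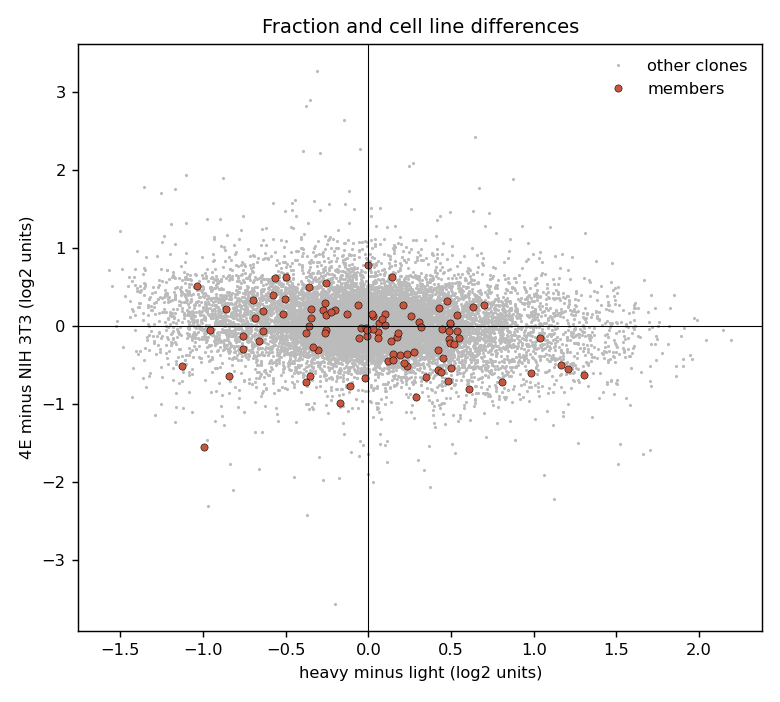
Heavy minus light difference (horizontal) against 4E minus NIH 3T3 difference (vertical), both in log2 units and averaged over the other factors, for the 100 members (red) and all other clones (grey). The members lie on both sides of 0 on both axes, from -1.13 to 1.31 and from -1.55 to 0.78, limits that the rule on size sets in part.

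Clone H3154E06 had the most negative cell line difference of the members, -1.55 (SE 0.23, limma adjusted p = 0.00154). Its 8 samples of 4E ran from -4.19 to 0.29 with a median of -2.54, and its 8 samples of NIH 3T3 from -2.13 to 0.82 with a median of -0.74. The lines lay further apart in starved than in basal cells. In basal cells its means were -1.60 (4E heavy), -0.99 (NIH 3T3 heavy), 0.12 (4E light) and 0.42 (NIH 3T3 light). In starved cells they were -3.78 and -3.69 in 4E and -1.47 and -0.72 in NIH 3T3, heavy before light. Clone H3052H03 was next at -0.98 (SE 0.24, limma adjusted p = 0.0444), with 8 samples of 4E from -2.18 to 1.05 (median -0.68) and 8 of NIH 3T3 from -0.38 to 1.37 (median 0.29). Its limma call was lost, at an adjusted p of 0.0704 to 0.111, without any 1 of 10 samples. Those were the first heavy basal, first heavy starved, both light basal and first light starved samples of NIH 3T3, and both heavy basal, the second heavy starved, the first light basal and the first light starved samples of 4E.

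On the positive side, clone H3100H04 differed by 0.78 (SE 0.17, limma adjusted p = 0.0247), with 8 samples of 4E from -0.71 to 1.04 (median 0.24) and 8 of NIH 3T3 from -1.31 to 0.04 (median -0.48). That call was lost, at limma adjusted p of 0.0525 to 0.0676, without any 1 of 8 samples. Those were the second heavy basal, second heavy starved, both light basal and first light starved samples of NIH 3T3, and the second heavy basal, first light basal and first light starved samples of 4E. Clone H3015H04 stood at a median of -0.03 in 4E and -0.87 in NIH 3T3, a difference of 0.64 that did not pass (SE 0.21, limma adjusted p = 0.143) except without the first sample of 4E heavy starved (adjusted p = 0.0467). For both of these positive clones the samples of the lines overlapped.

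The gap between the lines in the starved minus basal difference is made of the 4 strata that the rule ranked on, so it is only described. The starved minus basal difference was more negative in 4E than in NIH 3T3 in 63 members and less negative in 37. Over all clones the gap was below 0 in 49.8%. Its median was -0.17 in the members and 0.0033 in all clones, and in the members it ran from -2.19 to 1.26. By limma 1 member passed for this gap, as negative, against 2.01% of all clones (4.65% in either direction), and the gap coincides with the split by control rows. The count was 2 without the first heavy basal, first heavy starved, first light basal or second light starved sample of 4E, or without the second heavy starved or second light starved sample of NIH 3T3. That member was H3154E06, at -2.19 (SE 0.45, limma adjusted p = 0.0135). Within the sides of the split, line and serum change together. The members' median was -0.92 for 4E starved minus NIH 3T3 basal (range -3.45 to -0.082) and -0.82 for NIH 3T3 starved minus 4E basal (range -1.77 to -0.11). All 100 are negative in both by construction, since the serum difference had to exceed the line difference.

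Only 2 quantities between groups were left free by the rule. The first is whether the heavy minus light difference of a member depended on the cell line, averaged over serum. No member passed for it by limma, nor did any of the 15169 clones (0%). At an unadjusted p under 0.05 there were 3 members, against 2.54% of all clones. The term ran from -1.46 to 0.87 in the members with a median of -0.044, against -0.026 in all clones, and its median size was 0.26 against 0.25. The median SE of this term for a single clone was 0.39.

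The members at the ends of that range show the spread behind it. Clone H3057D12 had heavy minus light differences of 0.99 and 0.60 in basal and starved NIH 3T3 and of -0.68 and -0.66 in 4E, a term of -1.46 (SE 0.58, limma adjusted p = 0.999). Its heavy basal samples of NIH 3T3 stood at 1.88 and -0.15, and without the first of them the term was -0.96. Clone H3053C05 stood at -1.06 (SE 0.45, limma adjusted p = 0.999). Clone H3053E12 stood at 0.87 (SE 0.68, limma adjusted p = 0.999), with light basal samples of NIH 3T3 at 3.24 and 0.61. Its term was 0.21 without the first and 1.52 without the second of these, 0.51 without the first NIH 3T3 heavy basal sample and 0.56 without the first 4E light basal sample. Clone H3143G06 stood at 0.82 (SE 0.34, limma adjusted p = 0.999), with heavy minus light differences of 0.31 and 0.27 in NIH 3T3 and 1.30 and 0.92 in 4E. In H3057D12 and H3053E12 the samples of 1 group lay further apart than the term is large.

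The second quantity that did not enter the rule is a clone's mean level over the 8 groups. It says how far the clone's ratio to the reference lies from that of the median clone. The members lay lower, with a median of -0.15 against 0.034 for all clones and a range of -1.67 to 1.18. Of the 100 members, 66 were below 0 against 45.9% of all clones. By limma 43 members passed as negative and 16 as positive, against 22.8% and 23% of all clones (45.8% in either direction). On the side of the split with control values 70 members were below 0 (46.4% of all clones), and on the other side 62 (47.3% of all clones). The members' median size of level was 0.37, against 0.23 in all clones. The level gives basal and starved samples equal weight, so a negative starved minus basal difference does not fix its sign. Whether the choice of clones with lower starved values still favours low levels was not tested. The members' basal mean had a median of 0.28 (0.033 in all clones) and their starved mean one of -0.67 (0.026 in all clones).

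**Figure D4:**
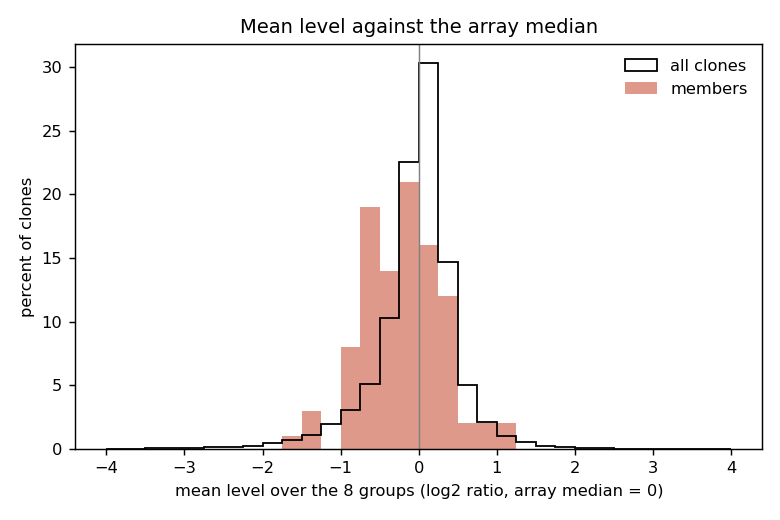
Share of clones, in percent, by mean level over the 8 groups (log2 ratio, array median at 0) for the 100 members (red) and all 15169 clones (black line). The members are wider and lie lower, with medians of -0.15 and 0.034.

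The lowest mean levels were those of clone H3154F05, at -1.67 (SE 0.18, limma adjusted p = 2.53e-06), and clone H3154E06, at -1.46 (SE 0.11, limma adjusted p = 1.11e-07). H3154F05 lay below the array median in all 16 samples, from -3.32 to -0.38, whereas H3154E06 ran from -4.19 to 0.82. The highest were clone H3149A01, at 1.18 (SE 0.11, limma adjusted p = 4.93e-07), and clone H3041D11, at 1.16 (SE 0.13, limma adjusted p = 3.38e-06). Both lay above the array median in all 16 samples, H3149A01 from 0.26 to 2.07 and H3041D11 from 0.07 to 2.39. For H3149A01 the basal means of the 4 strata were 1.35 to 1.70 and the starved means 0.67 to 0.91. Members that stayed on 1 side of the array median in every sample thus occurred on both sides of it.

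The spread of the members' measurements was near that of other clones. The SD between samples of a group had a median of 0.41 log2 units in the members and 0.39 in all clones. The median gap between the 2 deposited columns of a sample was 0.13 against 0.16. A median of 2 of 16 samples had equal values in both columns, in the members as in all clones, and 22 members had unequal columns in every sample, against 19.9% of all clones.

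The clone IDs give a plate number and a well in a plate of 96. The members came from 71 of the 159 plates, with 1 member on 52 of them, more than 2 on 7, and 5 on plate 3. Wells were filled less evenly. Well F02 held 7 members on 7 plates, A09 held 5 and D11 held 4, where the mean was 1.04 members per well and F02 holds 1.04% of all clones; these wells were singled out after their counts were seen. Over all 158 clones at F02 the median starved minus basal difference was -0.045, within the range of the 96 wells (-0.099 to 0.11), and 19 of the 158 were negative in all 4 strata, against 8.36% of all clones. The F02 members differed among themselves, with heavy minus light differences from -0.64 to 1.20 and mean levels from -0.72 to 0.89. The part of array position in the choice of members was not tested.

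**Figure D5:**
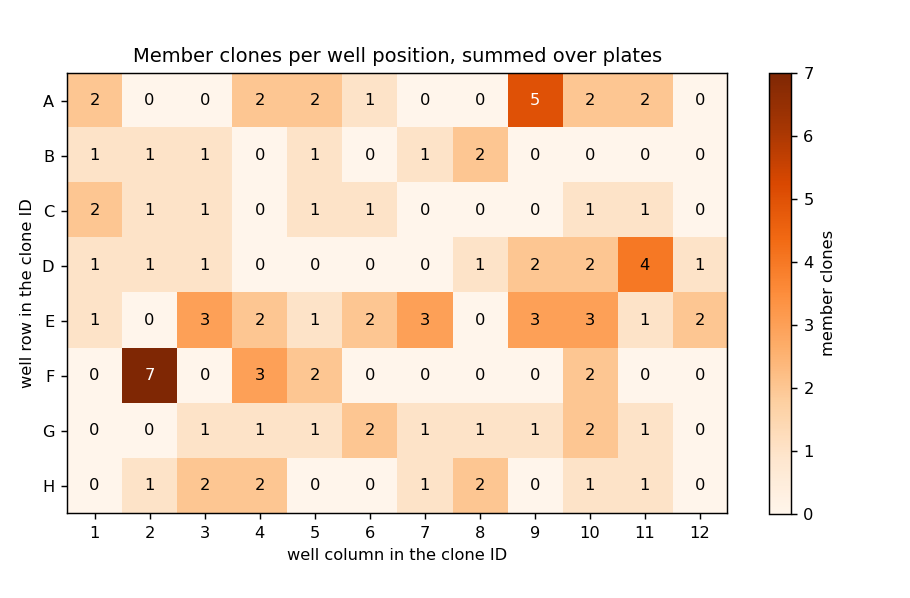
Number of member clones at each well position of the clone ID (8 rows, 12 columns), summed over the 159 plates. Position F02 holds 7, A09 5 and D11 4; 38 positions hold none and 31 hold 1.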

How the data were processed

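The authors deposited log ratios, taken here as log2, of 32 columns from 2-colour hybridisations against a common reference, per the labels. The sources used here name no scanner, background correction, normalization, log base or direction. In every pair of columns numbered 1 with 2 and 3 with 4, the values of one column were nowhere below the other's (tolerance 1e-06), so a pair was averaged as 1 sample after each column was centred on its median (-0.15 to 0.18). This left 16 samples, and 78 clones with a missing value were left out. limma 3.58.1 under R 4.3.3 fitted 8 group means over the 16 samples, with 8 residual degrees of freedom, empirical Bayes moderation and p-values adjusted by Benjamini-Hochberg over all 15169 clones (threshold 0.05). The fit was tested on simulated data. The number of arrays limits the precision.

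The members, lists and tests were chosen with earlier results of these data known. Clones are named by rule: the first 2 and the last member, the first clone outside, and the 2 highest and 2 lowest members for heavy minus light, cell line, their interaction and mean level. Clone IDs were looked up as whole words in the RefSeq gene table of assembly GRCm38.p6; wells were singled out after their counts were seen. Alternatives were each column as a replicate, the higher or lower column, no centring, quantile or median absolute deviation scaling, a replicate block, missing values kept, only clones with unequal columns, and each sample left out.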

Additional observations from a re-analysis of the deposited data

Results flagged for a closer look

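The starved minus basal difference of 1 member differed between lines by the limma test of that gap. Of all clones 2.01% passed for it as negative (4.65% in either direction). The gap is made of the 4 strata that the rule ranked on. Clone H3154E06 had a starved minus basal difference that was lower in 4E by -2.19 log2 units (SE 0.45, adjusted p = 0.0135). Its values by stratum were -0.47 in NIH 3T3 heavy, -1.14 in NIH 3T3 light, -2.18 in 4E heavy and -3.82 in 4E light. The gap ran from -2.85 to -1.86 over the alternatives. The value in NIH 3T3 heavy was 0.19 without the first starved sample of that stratum. The gap coincides with the split by filled and empty control rows, from which it cannot be told apart.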

How the results depend on the processing

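For the averaged differences, interactions and levels that the naming rule chose, and for the single strata printed for H3108H10 and H3154E06, 631 repeats kept their direction and side of the threshold, 42 lost a call, 8 gained one and 2 changed sign. Those were H3108H10 in NIH 3T3 light (-1.02 to 0.27 when 1 sample was left out, the latter without the first starved sample of that stratum) and H3154E06 in NIH 3T3 heavy (-1.14 to 0.19, likewise). Other per-stratum values were not repeated clone by clone. When 1 sample was left out, 70 to 87 members were again among the 100 lowest and 93 to 100 were negative in all 4 strata. With each column as a replicate, which counts each sample as 2, limma called 54 members for heavy minus light, 36 for cell line, 2 for fraction by line, 19 for serum by line and 3 for serum by fraction, and 51 (NIH 3T3 heavy), 61 (NIH 3T3 light), 78 (4E heavy) and 63 (4E light) for the single strata. Over all clones it then called 3815 for starved minus basal (446 as reported), 6107 for heavy minus light (2747) and 3551 for cell line (397). For the interactions and single strata the counts over all clones under this setting are not given, so those member counts have no background. The single strata are the values the rule ranked on, and their counts support nothing by themselves.

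When clones with equal columns in any sample were left out (3018 clones stay), 22 members remained, all 22 again among the 100 lowest and negative in all 4 strata. Of these limma called 17 for starved minus basal, 6 for heavy minus light, 3 for cell line, 17 for level, 7 in 4E heavy, 1 in 4E light and 0 in NIH 3T3 heavy or light. Of all clones it called 272, 1526, 213 and 2045 (6947 as reported) for serum, fraction, line and level.

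The lower column gave limma calls of 2 members for cell line and 0 in NIH 3T3 heavy and light. In these strata 32 and 52 members had an unadjusted limma p under 0.05 as reported, against 11.2% and 9.35% of all clones. The rule ranked on the values of these strata. The higher column gave 2 for serum by line. A common median absolute deviation gave 3 for cell line, 5 in 4E heavy and 4 in 4E light. The labels do not say that sample numbers pair the samples. The deviations of same-numbered samples correlated at r of -0.33 to 0.36 over 28 pairs of groups (median -0.086), above 0.1 in 9. These 28 mix heavy with light samples of the same line and serum state and all other pairs of groups. The check thus cannot decide whether heavy and light samples share a lysate. As the labels give no pairing, the numbers were not taken as pairs. The replicate block gave 2 for cell line (H3052H03 at an adjusted p of 0.0623) and 0 in NIH 3T3 heavy, with 61 for starved minus basal, 18 for heavy minus light and 57 for level.

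Leaving out 1 sample gave 44 to 72 members for starved minus basal, 16 to 24 for heavy minus light, 1 to 7 for cell line, 1 to 2 for serum by line, 54 to 59 for level, 0 to 1 in NIH 3T3 heavy, 0 to 1 in NIH 3T3 light, 0 to 22 in 4E heavy and 1 to 5 in 4E light. Over all clones starved minus basal then had 232 (without the first NIH 3T3 heavy basal sample) to 634 calls (without the first 4E heavy starved sample). A group left with 1 sample is assumed to vary like the others. With 2 samples a group, single strata are the least precise values here.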
